A study of Mus musculus with 5 samples.

Results

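The ZAS family of large zinc finger proteins, Hivep1, Hivep2 and Hivep3, was followed in the mouse thymus together with Runx2 and Wwp1, the partners through which Hivep3 acts in bone. The 5 genes were taken by symbol, out of 16504 genes with a name on the array. Probes named 4 of them, with 1 probe each for Hivep1, Hivep2 and Wwp1 and 2 probes for Hivep3. Runx2 had no probe under its symbol in the platform annotation used here, so it has no value. Each of 5 arrays compared RNA of the whole thymus of a ZAS3-null mouse with that of a wild-type mouse, ZAS3 being the product of Hivep3. The animals were littermates matched for sex and age, 6 to 8 weeks old. The labels give neither the strain nor the part of Hivep3 that was deleted. The sample labels name whole thymus, and the series' design text names thymocytes.

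ZAS proteins carry pairs of zinc fingers far apart in a long chain and bind kappaB-like DNA, the sequences that NF-kB also binds. Hivep3, also called Schnurri-3, KRC or Zas3, has been reported in mice to bring the ubiquitin ligase WWP1 to the transcription factor RUNX2, so that RUNX2 is degraded in osteoblasts. In T cells the same protein has been reported to bind the AP-1 subunit c-Jun and the adaptor TRAF2. Hivep2, or Schnurri-2, is needed in mice for the positive selection of thymocytes. Runx2 is best known as the regulator of bone formation, while its relatives Runx1 and Runx3 act in developing T cells.

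The values were log2 ratios of the 2 colours, made by the authors, and the sources do not settle their direction. ZAS3-null RNA is in Cy5 by the sample labels but in Cy3 by the design text. ZAS3-null over wild-type is the likely sense of the ratio, going by the titles and the channel order, and the signs are read that way. All 5 arrays ran the same way, with correlations between arrays from 0.372 to 0.853 over all spots. Without 256 very low spots that carry no gene name they were 0.140 to 0.711, and 0.083 to 0.627 once a trend across the slide, described next, was also subtracted. With 1 orientation, a dye effect of a probe and an effect of genotype cannot be told apart. In whole thymus, fewer cells of a type and less RNA per cell cannot be told apart either. The table holds ratios and no brightness, so markers could not show which cells were present. The ratios also rose across the slide, from a median between -0.25 and -0.11 on the 5 arrays in the first 10 columns to one between 0.23 and 0.31 in the last 10. Each value is therefore given as deposited and again after subtraction of the local median, the median of the surrounding 21 by 21 spots on the same array.

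Hivep3, the targeted gene, had a mean log2 ratio close to 0 and was not lower in ZAS3-null thymus on the likely direction. Its gene value, the mean of its 2 probes, was 0.07, 0.15, -0.03, 0.09 and 0.10 on arrays 1 to 5. It was thus slightly positive on 4 arrays and slightly negative on array 3. The mean was 0.08 ± 0.07 (SD, n = 5; limma adjusted p = 0.37), with a 95% interval of -0.06 to 0.21. After subtraction of the local median the gene value was 0.15, 0.30, 0.06, 0.19 and 0.16. All 5 arrays were then positive, with a mean of 0.17 ± 0.09 and an interval of 0.02 to 0.32. The limma adjusted p was 0.141, and the unadjusted limma p was 0.0299. As a fold, this mean is 1.13. The same sign on 5 of 5 arrays was not rare, since after correction 11.7% of all genes were positive on every array. A probe outside the deleted part of the gene checks nothing, and the labels do not place either probe.

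The 2 Hivep3 probes did not move together from array to array. The probe in column 58 of the slide had log2 ratios of 0.28, 0.07, 0.16, 0.00 and 0.18, with a mean of 0.14 ± 0.11, and no array was negative. The probe in column 25 had -0.14, 0.23, -0.23, 0.19 and 0.01, with a mean of 0.013 ± 0.20, and its sign changed between arrays. On arrays 1 and 3 the first probe was positive and the second negative. Corrected for position the probes had means of 0.20 ± 0.12 and 0.14 ± 0.24, with limma adjusted p of 0.13 and 0.38. Corrected values of the column 58 probe lay between 0.01 and 0.32 on the 5 arrays, and those of the column 25 probe between -0.16 and 0.39. As deposited, the probes deviated from their means in opposite directions on arrays 1 to 4, and the gene value, their average, spread less than either probe.

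**Figure D1:**
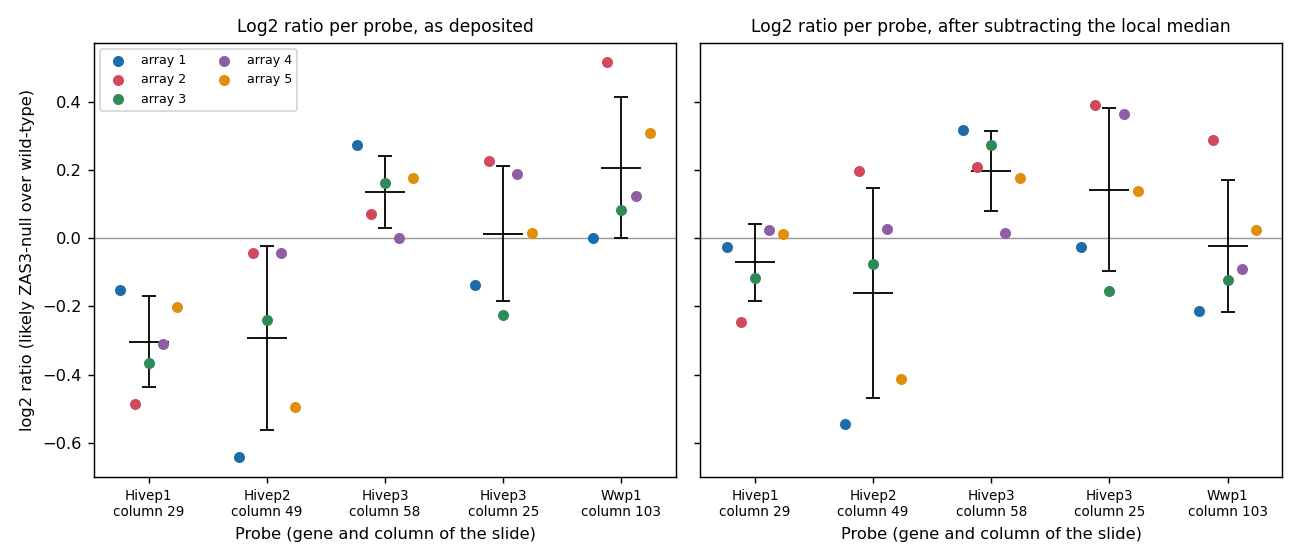
Log2 ratio (likely ZAS3-null over wild-type) of the 5 member probes on arrays 1 to 5, as deposited (left) and after subtraction of the local median (right); points are arrays, and bars give the mean ± SD (n = 5). Hivep1 lies wholly below 0 on the left, with a mean of -0.30, and around 0 on the right, with a mean of -0.07.

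Hivep1, whose product binds kappaB-like elements of viral and immune gene enhancers, was the member with a call as deposited. Its log2 ratios were -0.15, -0.49, -0.37, -0.31 and -0.20 on arrays 1 to 5. All arrays were negative, as for 20.5% of all genes, and array 2 was the lowest. The mean was -0.30 ± 0.13 (SD, n = 5; a fold of 1.23; limma adjusted p = 0.0267), with an interval of -0.47 to -0.13. As deposited, 24.8% of all 16504 genes passed the same threshold of 0.05 in either direction and 12.9% passed it on the negative side, so 1 of 4 measured members is a share near the background. The call was lost without array 3, 4 or 5, with adjusted p of 0.0714, 0.0869 and 0.0773. In these runs its mean was -0.29, -0.30 and -0.33. The calls over all genes fell in the same runs, from 4095 with all arrays to 2856, 1348 and 734.

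Around the Hivep1 probe the slide itself was negative. The local median there was -0.12, -0.24, -0.25, -0.33 and -0.21 on arrays 1 to 5, with a mean of -0.23. After it was subtracted, Hivep1 had -0.03, -0.25, -0.12, 0.02 and 0.01. It was then negative on 3 arrays and positive on 2, with a mean of -0.07 ± 0.11 (adjusted p = 0.511) and an interval of -0.23 to 0.09. Of the 434 surrounding spots, 40.3% had a lower mean ratio than Hivep1, so its probe stood near the middle of its own neighbourhood. Its mean as deposited had been at percentile 14.2 of all named genes, and its corrected mean was at percentile 38.2.

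Hivep2 differed between the arrays more than the other members did. Its log2 ratios were -0.64, -0.04, -0.24, -0.04 and -0.50 on arrays 1 to 5. Arrays 1 and 5 were clearly negative, and arrays 2 and 4 were close to 0. The mean of -0.29 ± 0.27 (SD, n = 5; a fold of 1.22) was nearly the same as that of Hivep1, but with the larger spread it did not pass (limma adjusted p = 0.0945; interval -0.55 to -0.03). With arrays weighted by their quality the mean was -0.36 and passed (limma adjusted p = 0.0278). That weighting called 6231 of all 16504 genes, against 4095 without it.

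Correction for position left this pattern of Hivep2 in place. Its corrected values were -0.54, 0.20, -0.08, 0.03 and -0.41, with a mean of -0.16 ± 0.31 (adjusted p = 0.406). On array 1 only 8.0% of the surrounding 437 spots lay below the Hivep2 probe and on array 5 only 3.4%, against 68.6%, 34.3% and 54.0% on arrays 2, 3 and 4. Without array 1 the corrected mean was -0.07, and without array 2 it was -0.25. Markers of thymocytes, the main cells of the thymus, were also low on arrays 1 and 5. The mean of 9 such genes (Cd3e, Cd3d, Cd4, Cd8a, Cd8b1, Rag1, Rag2, Ptcra and Dntt) was -0.33, -0.01, -0.10, -0.28 and -0.27 as deposited, and 2 of the 9 were positive and 4 negative past the threshold, beside 24.8% of all genes called. After correction the limma fit called 0 of the 9 and 7 had an unadjusted p under 0.05, beside 2.91% and 27% of all genes. The mean of these markers was low on array 4 too, where Hivep2 was near 0, and its part in the Hivep2 values was not tested.

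**Figure D2:**
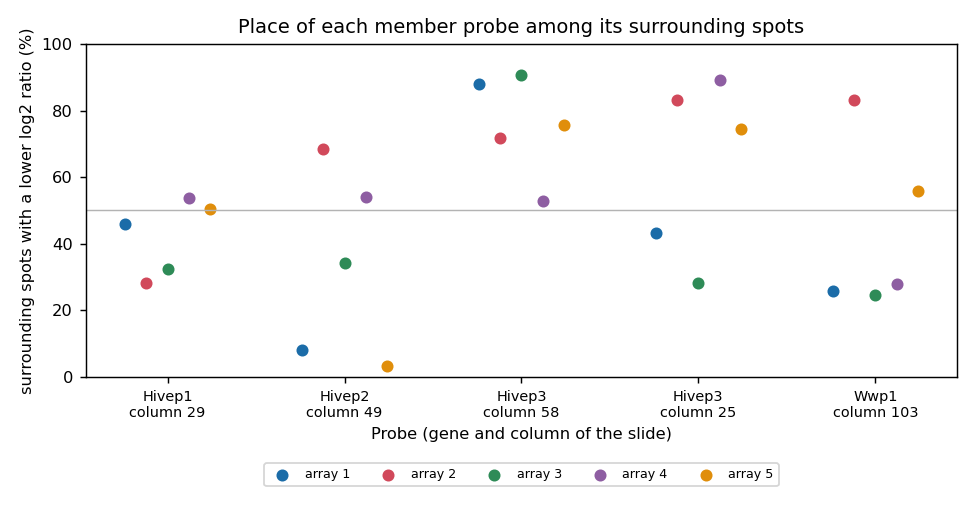
Percentage of surrounding spots (21 by 21 window, without the very low spots) with a lower log2 ratio than each member probe, for arrays 1 to 5; the line marks 50%. Hivep2 sits at 8.0% and 3.4% on arrays 1 and 5 and between 34.3% and 68.6% on the others, and the Hivep3 probe of column 58 sits at or above 52.8% on every array.

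Wwp1, the ubiquitin ligase whose WW domains recognise proline-rich motifs such as those of RUNX proteins, had a positive ratio that matched its surroundings. Its log2 ratios were 0.00, 0.52, 0.08, 0.12 and 0.31 on arrays 1 to 5. None was negative, and array 2 was the highest. The mean was 0.21 ± 0.21 (SD, n = 5; a fold of 1.15; limma adjusted p = 0.137), with an interval of -0.01 to 0.42. The probe lay in column 103, near the edge where ratios were high, and its local median was 0.21, 0.23, 0.21, 0.21 and 0.29. Corrected, Wwp1 had -0.21, 0.29, -0.12, -0.09 and 0.02. It was negative on 3 arrays and positive on 2, with a mean of -0.02 ± 0.19 (adjusted p = 0.879) and an interval of -0.23 to 0.18. Corrected by column and row medians instead, the mean was -0.11 (adjusted p = 0.33).

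**Figure D3:**
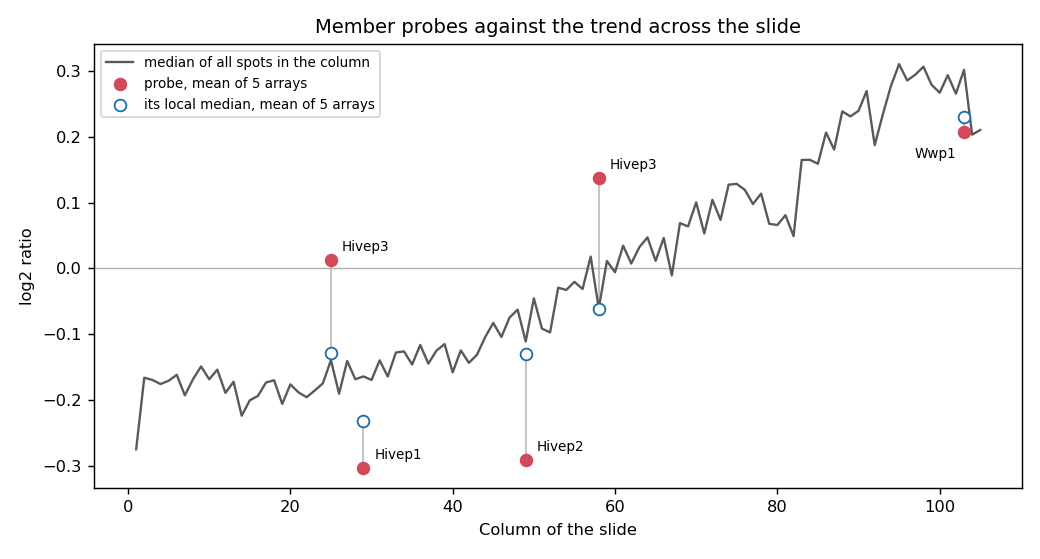
Mean log2 ratio over 5 arrays (y axis) against the column of the slide (x axis): the line is the median of all spots of a column, filled points are the 5 member probes, and open points are their local medians. Wwp1 (0.21) lies beside its local median (0.23), Hivep1 (-0.30) lies a little below its own (-0.23), and both Hivep3 probes lie above theirs.

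After position correction the limma fit called 0 of the 4 measured members, and for 1 of them, Hivep3, the p before adjustment was under 0.05. After correction 2.91% of all genes passed, and 27% were under 0.05 before adjustment. As deposited, 2 members (Hivep1 and Hivep2) were under 0.05 before adjustment, as were 40.3% of all genes. At adjusted thresholds of 0.01 and 0.1 the deposited values gave 0 and 2 members, beside 4.85% and 36.2% of all genes. The design text's selection rule, 1.5-fold or more on 4 or more arrays, was met by 0 of the 4 members both before and after correction, against 0.866% and 0.242% of all genes. Among the gene values as deposited, Hivep2 on array 1 was alone in reaching 1.5-fold.

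**Figure D4:**
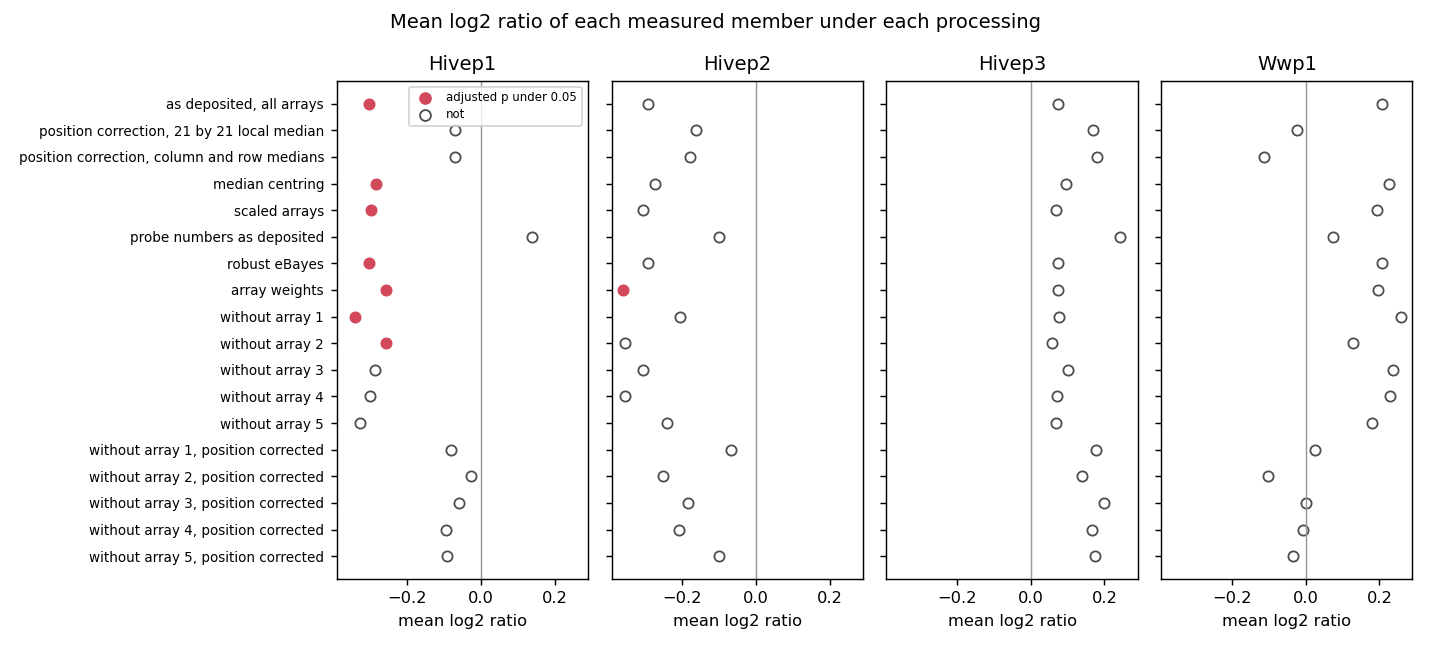
Mean log2 ratio (x axis) of the 4 measured members under each processing of the values (y axis); filled points had a limma adjusted p under 0.05. Hivep3 is positive under every processing shown, and Hivep1 moves between -0.34 and 0.14. The processing with deposited probe numbers puts other spots under the names. Wwp1 is negative with either position correction of all arrays, and stays positive after correction without array 1 (0.025) or 3 (0.002).

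Within the family, the gene value of Hivep3 was above those of both relatives on every array. It was below both if the ratio runs the other way. The difference of Hivep3 minus Hivep1 was 0.22, 0.63, 0.34, 0.40 and 0.30 as deposited, with a mean of 0.38 ± 0.16, and 0.24 ± 0.17 after correction. Hivep3 minus Hivep2 was 0.37 ± 0.26 as deposited and 0.33 ± 0.28 after correction. Both differences were positive on 5 of 5 arrays before and after correction. A two-sided exact permutation test of the signs gave p = 0.0625, the smallest value that 5 arrays allow. After correction the 5 of 5 held for the average of the 2 Hivep3 probes and for neither probe alone. On array 4 the corrected column 58 probe had 0.014, below Hivep1 (0.023) and Hivep2 (0.028). On array 3 the corrected column 25 probe had -0.16, below Hivep1 (-0.12) and Hivep2 (-0.08). Adjusted over the 6 pairs of measured members, the exact p was 0.0938 as deposited and 0.125 after correction, and this test cannot pass 0.05 with 5 arrays. Hivep1 and Hivep2, alike in their means, were not alike by array. Hivep1 minus Hivep2 was 0.49, -0.44, -0.13, -0.27 and 0.29, with a mean of -0.01 ± 0.39 (exact permutation p = 1).

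Wwp1 did not keep one place relative to the family. As deposited it was above Hivep1 on 5 of 5 arrays, by 0.51 ± 0.31, and above Hivep2 by 0.50 ± 0.25. After correction it was above Hivep1 on 2 arrays only, by a mean of 0.05 ± 0.28. The gene value of Hivep3 was then above Wwp1 on 5 of 5 arrays by 0.19 ± 0.13 (exact permutation p = 0.0625, adjusted 0.125). Neither Hivep3 probe alone was above Wwp1 on every array. The corrected column 58 probe was below it on array 2 (0.21 against 0.29), and the column 25 probe on array 3 (-0.16 against -0.12). In order of corrected means the members were Hivep3 (0.17), Wwp1 (-0.02), Hivep1 (-0.07) and Hivep2 (-0.16), and the order is reversed if the ratio runs the other way. None of the 3 steps between neighbours in this order passed the exact test, which cannot go below 0.0625 here.

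The corrected patterns of the members were set beside those of all other named genes by the root mean square difference over the 5 arrays. Zfp112 and Tecpr2 were nearest to Hivep3, at 0.017 and 0.021, and 599 genes lay within 0.1 of it. Poteg and Prrg4 were nearest to Hivep1, at 0.026 and 0.042, with 228 genes within 0.1. For Wwp1 the nearest were Olfr735 and Tlx1, at 0.037 and 0.046, with 138 genes within 0.1. Hivep2 had the fewest near genes, 29 within 0.1, led by Ctnnb1, the gene of beta-catenin, at 0.059 and Zfp445 at 0.065. Ctnnb1 had corrected values of -0.62, 0.09, -0.06, 0.00 and -0.42, low on arrays 1 and 5 as Hivep2 was. Over all spots without the very low ones, arrays 1 and 5 correlated at 0.510 after correction. The other members were not among the near genes of any member. The smallest difference between members was 0.23, between Hivep3 and Wwp1. The nearest by rank was Wwp1 to Hivep2, with a difference of 0.25 and rank 2266 among all other genes.

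The promoters of the 3 family members are shown because the mean ratios of Hivep1 and Hivep2 were negative together as deposited, apart from Hivep3, and because ZAS proteins bind kappaB-like DNA. That grouping was taken from these same data, and after position correction the Hivep1 mean was -0.07 with 2 arrays positive. Whether the promoter letters relate to the ratios was not tested. Each window runs from 250 bases before to 50 bases after the gene's start in RefSeq (GRCm38.p6), 5′ to 3′ on the plus strand, at chr13:42051771-42052070 for Hivep1, chr10:13966129-13966428 for Hivep2 and chr4:119814428-119814727 for Hivep3. Capitals mark matches on either strand to a kappaB-like pattern, GGG, any 5 bases and CC.
Hivep1: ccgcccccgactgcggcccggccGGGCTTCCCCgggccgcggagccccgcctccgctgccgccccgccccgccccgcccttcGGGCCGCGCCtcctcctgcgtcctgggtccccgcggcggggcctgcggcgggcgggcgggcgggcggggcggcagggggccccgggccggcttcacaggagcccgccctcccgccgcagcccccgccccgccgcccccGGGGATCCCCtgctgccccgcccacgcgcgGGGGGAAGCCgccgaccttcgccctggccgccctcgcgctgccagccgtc
Hivep2: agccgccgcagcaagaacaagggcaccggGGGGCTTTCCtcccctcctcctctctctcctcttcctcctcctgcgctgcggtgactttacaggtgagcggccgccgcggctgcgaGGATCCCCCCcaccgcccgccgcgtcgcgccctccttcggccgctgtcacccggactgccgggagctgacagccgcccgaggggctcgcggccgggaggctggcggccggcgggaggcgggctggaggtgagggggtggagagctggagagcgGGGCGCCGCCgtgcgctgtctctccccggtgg
Hivep3: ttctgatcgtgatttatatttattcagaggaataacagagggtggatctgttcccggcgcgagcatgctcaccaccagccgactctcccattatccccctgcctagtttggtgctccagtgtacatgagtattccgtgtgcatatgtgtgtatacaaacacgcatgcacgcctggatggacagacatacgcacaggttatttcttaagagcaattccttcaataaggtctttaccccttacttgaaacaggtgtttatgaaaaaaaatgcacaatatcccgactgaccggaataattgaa
The Hivep1 window holds 4 such matches, the Hivep2 window 3 and the Hivep3 window 0. The pattern is loose, and 50.8% of all 32851 promoter windows of this length hold at least 1 match. Base composition runs the same way, with 87.0% G and C for Hivep1, 75.3% for Hivep2 and 44.3% for Hivep3. A match is a description of the letters and not a binding site. Of the measured members, Wwp1 is named without a promoter sequence.

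RUNX proteins share a common partner, the product of Cbfb, and recruit corepressors, and such genes were the pathway list with most calls. Of 9 measured RUNX relatives and cofactors, 1 was positive and 3 were negative past the threshold as deposited, a share of 4 in 9 beside 24.8% of all genes (12% positive and 12.9% negative). Their median mean ratio was -0.22 as deposited, against -0.03 over all genes. After position correction it was -0.09, against -0.008 over all genes. The 4 were all Groucho-type corepressors of the Tle family, which RUNX proteins bind through their last residues. Tle3 had -0.90, -0.59, -0.57, -0.63 and -0.89 on arrays 1 to 5, with a mean of -0.71 ± 0.17 (limma adjusted p = 0.0038). Arrays 1 and 5 were lowest, as for Hivep2. Over all spots without the very low ones these arrays correlated at 0.587, the highest value for array 1. How many genes share this likeness was not counted. Tle4 had -0.49 ± 0.16 (adjusted p = 0.0098), Tle1 -0.24 ± 0.10 (0.0399) and Tle2 0.37 ± 0.03 (0.008).

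After correction 1 of these 9 genes passed, beside 2.91% of all genes. It was Tle3, one of the 2.3% of genes called negative after correction, with a mean of -0.58 ± 0.22 (limma adjusted p = 0.0272) and all 5 arrays negative. Its corrected call did not hold when array 1, 3, 4 or 5 was left out (highest adjusted p 0.134). The corrected calls over all genes fell in those runs too, from 481 with all arrays to 57, 107, 28 and 23. Tle2, in column 100 of the slide, had 0.10 (adjusted p = 0.315), and Tle1, in column 12, had -0.09 (0.393). Tle4 kept -0.30 and did not pass (0.0854). Runx1 had -0.26 ± 0.38 as deposited and Runx3 0.17 ± 0.11, while Cbfb, the common partner of RUNX proteins, had -0.16 ± 0.18, and none of these passed. Corrected, Runx1 had -0.06 (limma adjusted p = 0.802), Runx3 0.24 (0.11) and Cbfb -0.31 (0.0653), and again none passed. Corrected Cbfb was negative on 5 of 5 arrays, as 14.5% of all genes were, and corrected Runx3 was positive on 5 of 5, as 11.7% were. As deposited, Tle1 no longer passed when array 1, 3, 4 or 5 was left out (highest adjusted p 0.138) or after median centring (0.0712), and Tle4 no longer passed without array 5 (0.0521).

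Relatives of Wwp1 among the NEDD4-type ubiquitin ligases and their adaptors gave 3 negative and 0 positive calls among 10 genes as deposited, beside 24.8% of all genes. Itch, a ligase that restrains T cell activation in mice, had -0.78, -0.44, -0.42, -0.58 and -0.55, with a mean of -0.55 ± 0.14 (limma adjusted p = 0.0065). Ndfip1, an adaptor that activates Itch, had -0.32 ± 0.05 (0.0124), and Nedd4l had -0.38 ± 0.26 (0.0417). After correction the limma fit called 0 of the 10 and 5 had an unadjusted p under 0.05, beside 2.91% and 27% of all genes. The list's median was -0.20 after and -0.18 before correction. Itch kept -0.35 (adjusted p = 0.0579), Nedd4l -0.42 (0.0771) and Ndfip1 -0.20 (0.0858), each negative on 5 of 5 arrays, as 14.5% of all genes were. Wwp2, the closest relative of Wwp1, lay in column 102 and had 0.14 before and -0.15 after correction, a change of sign like that of Wwp1. As deposited, Nedd4l no longer passed when array 1, 3, 4 or 5 was left out (highest adjusted p 0.118) or after median centring (0.0526), and Ndfip1 no longer passed without array 4 or 5 (highest 0.0597).

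Genes that RUNX2 controls in bone gave 1 call before and 0 after correction. Of the 16 listed, Bglap, Bglap2 and Spp1 were not measured, so the counts do not cover them. Of 13 measured genes, Ibsp, the gene of bone sialoprotein, was the 1 call as deposited, at 0.39 ± 0.19 (limma adjusted p = 0.0223), and it lay in column 94 of the slide. As deposited, 24.8% of all genes were called. After correction it had 0.14 (0.295), the limma fit called 0 of the 13, and 1 had an unadjusted p under 0.05, beside 2.91% and 27% of all genes. The list's median was -0.06 before and -0.03 after correction. Leaving out array 1, 4 or 5 ended the Ibsp call (highest adjusted p 0.074).

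Among 13 measured genes otherwise reported as partners or targets of Schnurri proteins, 1 was negative and 1 positive as deposited, beside 24.8% of all genes called, and the median was 0.0042. Jun, the gene of the AP-1 subunit that binds ZAS3, had -0.53, -0.66, -0.43, -0.29 and -0.40, all negative, with a mean of -0.46 ± 0.14 (limma adjusted p = 0.0095). Sstr2, a somatostatin receptor gene, had 0.40 ± 0.29 (0.0466). After correction the limma fit called 0 of the 13 and 4 had an unadjusted p under 0.05, beside 2.91% and 27% of all genes. Jun had -0.29 (adjusted p = 0.0854) and Sstr2 0.25 (0.186). Traf2, the gene of the adaptor that binds ZAS3, had -0.006 ± 0.12 before correction and 0.15 after it, and Il2, a reported target, had -0.0006 ± 0.25 and 0.26, neither past the threshold. Leaving out array 1, 2, 4 or 5 ended the Sstr2 call (highest adjusted p 0.139).

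**Figure D5:**
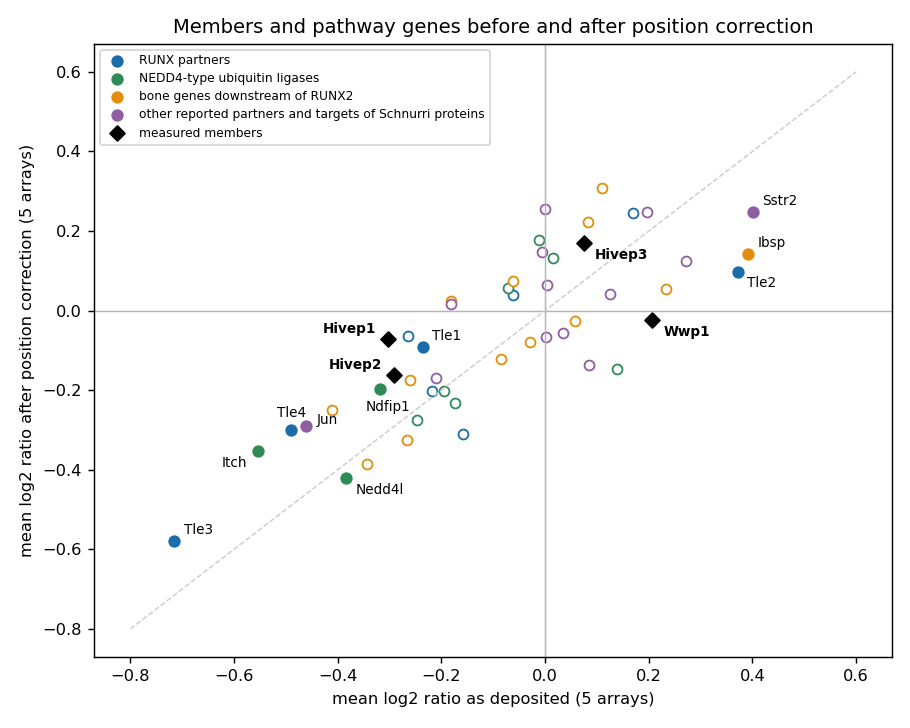
Mean log2 ratio over 5 arrays as deposited (x axis) and after position correction (y axis) for the 4 measured members (diamonds) and the 45 measured genes of the 4 pathway lists (circles, filled where the limma adjusted p as deposited was under 0.05). Points on the dashed line did not move; Tle3 lies farthest down on both axes, at -0.71 and -0.58, and Wwp1 crosses 0.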

How the data were processed

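The authors' deposited values are log2 ratios of 2 colours, 1 column per array. Per the series' design text, the authors read images with GenePix, analysed them in GeneTraffic 2.6 and applied lowess normalization, leaving spots under background out of it. Within 6e-05, 100% of the deposited values were the log2 of a fold with 2 decimals. Spot brightness was not analysed here, and 0 values were missing, and precision is limited by having 5 arrays.

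Probe numbers of the value table and of the annotation run across the slide in different orders, and names rest on rows and columns exchanged, an order found from the data. There, 256 of the 256 spots that were under -1.5 on all arrays had no gene, against 41 of 256 under the deposited numbers. Among 48 genes with 10 spots or more, spots of a gene had a median SD of 0.18 to 0.23 on the 5 arrays, against 0.29 to 0.47 under the deposited numbers. Those 256 spots were left out of local medians.

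The probes of a gene were averaged, and all 20861 features (16504 genes and unnamed probes) were tested against 0 by an intercept-only fit in limma 3.58.1 (R 4.3.3). Benjamini-Hochberg adjustment covered all features, and 0.05 was the threshold. Each array has mice of its own, so the spread behind a p-value is that of animal pairs and of technique together. The fit and the correction were tested on simulated data. Alternatives were another position correction, centring, scaling, deposited numbers, robust eBayes, array weights, other thresholds, single probes and each array left out. The members, lists and tests were chosen with earlier results of these data known. The named genes were the members, every gene of the 4 pathway lists past the threshold before or after correction, and the 2 genes nearest to each member; Runx1, Runx3, Cbfb, Wwp2, Traf2 and Il2 were added for their roles after their values were seen.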

Additional observations from a re-analysis of the deposited data

How the results depend on the processing

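Hivep3 had a positive mean log2 ratio that did not pass under the 7 alternatives with all arrays and averaged probes (0.07 to 0.24, limma adjusted p 0.0718 to 0.397). The 0.24 and the adjusted p of 0.0718 came from the deposited probe numbers, which put other spots under the name. The single probes of Hivep3 had 0.14 (adjusted p = 0.171) and 0.013 (0.925). With 1 array left out its gene value ranged from 0.06 to 0.10 as deposited (adjusted p 0.284 to 0.567). After position correction that range was 0.14 to 0.20 (0.156 to 0.321). Hivep1 lost its call with the local median (-0.071) and with column and row medians (-0.070), and turned to 0.14 under the deposited probe numbers, which put another spot under the name. With 1 array left out it ranged from -0.34 to -0.26, and from -0.094 to -0.027 after correction (-0.082, -0.027, -0.059, -0.094 and -0.092 without arrays 1 to 5). Hivep2 passed with array weights (-0.36), and ranged from -0.35 to -0.20 with 1 array left out and from -0.25 to -0.066 after correction. Wwp1 turned negative with the local median (-0.023) and with column and row medians (-0.11), and ranged from 0.13 to 0.26 with 1 array left out and from -0.101 to 0.025 after correction, where it was negative without array 2 (-0.101), 4 (-0.0062) or 5 (-0.035). Under the deposited numbers Tle1 (0.026), Tle2 (-0.026), Nedd4l (0.23), Jun (0.27) and Sstr2 (-0.23) also changed sign. The cause of the other changes was not tested.

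Called members numbered 1 as deposited, 0 with either position correction, 0 with deposited numbers, 2 with array weights, 0 at a threshold of 0.01, 2 at 0.1, and 0 to 1 with 1 array left out (0 after correction). RUNX partners numbered 4 as deposited, 1 with either correction, 0 with deposited numbers, and 2 to 4 with 1 array left out (0 to 2 after correction). The ubiquitin ligases numbered 3, 0 with either correction, and 1 to 3 (0 to 2). The bone genes numbered 1, 0 with either correction, 3 with deposited numbers, 2 with array weights, and 0 to 2 (0). The other partners numbered 2, 0 with either correction, 4 with array weights, and 1 to 2 (0 to 1). Over all genes the count was 4095 as deposited, 481 with the local median and 473 with column and row medians. With array weights it was 6231, and with 1 array left out 734 (array 5) to 4763 (array 2). After correction, leaving 1 array out gave 23 to 1152. No member met the 1.5-fold rule under any alternative run. Each array is itself 1 ratio of a ZAS3-null and a wild-type animal, so the fit on the ratios already uses the pairing within arrays. The labels give 1 group, and no further paired analysis was run.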

Other observations

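Across genes, the mean log2 ratios of different probes of a gene were only weakly related. This is another measure than the disagreement of the 2 Hivep3 probes from array to array. Over 1030 genes with exactly 2 probes, the mean log2 ratios of the 2 probes correlated at 0.14 as deposited and at 0.13 after position correction, a description across genes that share the arrays. Under the deposited numbers the value was 0.053. Repeated spots of 48 genes drew together after correction on arrays 2 to 5, with a median SD between spots of 0.09 to 0.11, against 0.18 to 0.23 before it. On array 1 the median SD was 0.26 after correction, against 0.18 before it, and array 1 gave the lowest corrected values of Hivep2 and Wwp1.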
